A study of Mus musculus and Homo sapiens with 10 samples.

Results

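Short interspersed nuclear elements (SINEs) of the mouse genome were examined in RNA-seq data from vitC-treated and control mouse embryonic stem cells (mESCs). Every row that the mm10 repeat table places in the class SINE was taken, which gave 37 of its 1196 repeat subfamilies. They fell into 7 families, namely Alu with 16 subfamilies (the mouse B1 elements and their relatives), B2 with 5, B4 with 4, ID with 4, MIR with 4, Deu with 2 and tRNA with 2. The cells were E14, an established mESC line, grown in 2i media, in which inhibitors hold cells in the naive state. The 4 control cultures received no vitC and the 4 treated cultures received 100 µg/ml for 24 h. Each control carried the same culture label (10, 11, 35B or 35C) as one treated culture, and these are called pairs 1 to 4. The labels do not say how the cultures were derived, so p-values measure the spread between these samples. All 8 marker genes of naive mESCs were expressed, with mean variance-stabilised values between 10.4 and 13.2 in control cells. The 6 primitive endoderm markers lay between 6.17 and 6.65 and the 5 fibroblast markers between 6.13 and 7.07. Mesoderm markers lay between 6.42 and 7.14 and neural markers between 6.39 and 8.21. Among primed epiblast markers Dnmt3b was at 10.78, within the naive range, and the others lay between 6.27 and 7.21.

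SINEs are non-autonomous retrotransposons that encode no protein and depend on LINE-1 proteins in order to move. RNA polymerase III transcribes them from a promoter inside the element, yet most SINE sequence in cellular RNA lies within transcripts of RNA polymerase II, such as introns and the ends of messenger RNAs, and RNA-seq counts hold both. B1 elements descend from 7SL RNA, the RNA of the signal recognition particle, and B2, B4, ID and MIR elements carry heads related to transfer RNAs, with ID elements linked to the small RNA BC1. B2 RNA is known to rise in stressed cells and to bind RNA polymerase II.

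The RNA to which ID elements are linked is shown because a row of the repeat table named after it is set beside ID elements further on. It is a transcript of GENCODE vM21 on GRCm38, read 5′ to 3′. Bc1 lies on the plus strand of chromosome 7 (chr7:144914470-144914637). Capitals mark bases covered by words of 16 bases that were found, on either strand, in transcripts of at least 20 other genes out of 55340 searched. A shared word is a match of letters only.
Bc1: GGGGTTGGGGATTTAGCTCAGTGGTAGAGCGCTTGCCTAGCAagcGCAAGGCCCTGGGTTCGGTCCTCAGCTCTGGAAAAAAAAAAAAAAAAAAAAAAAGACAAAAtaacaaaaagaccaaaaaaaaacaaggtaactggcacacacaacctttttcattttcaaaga
In Bc1, 103 of 168 bases were in capitals, and they covered nearly the whole 5′ head and the first part of the A-rich stretch after it. The commonest word of the whole transcript occurred in 3388 other genes. Which word that was is not given, and the search also covered the A-rich stretch, so this number does not describe the head alone.

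The libraries held between 2321035 and 5124929 counts in repeats, of which SINEs took between 9.23% and 17.02%. Between 257240 and 472878 SINE counts per library were available, and between 151578 and 258174 of these came from uniquely mapped reads. Ribosomal repeats took 42.0% to 51.5% of repeat counts in the libraries labelled 10 and 11 and 59.99% to 63.1% in those labelled 35B and 35C, so these culture sets stood apart. Control replicates 1 and 4 had the largest share of counts in small structured RNAs (7SL, 7SK, small nuclear and other small RNAs), at 19.2% and 18.7%, against 10.4% to 14.9% in the other 6 libraries.

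The 37 subfamilies had 1533009 annotated copies in all. The Alu family was annotated with 574557 copies, B4 with 397726, B2 with 372923, MIR with 120436 and ID with 64047, whereas Deu and tRNA had 1702 and 1618. As a share of SINE counts in control cells, Alu took 40.3% ± 1.61, B2 32.8% ± 2.67, B4 18.9% ± 0.76, MIR 4.47% ± 0.18 and ID 3.23% ± 0.17 (SD, n = 4). The same shares in vitC-treated cells were 40.8% ± 1.00, 31.3% ± 2.08, 19.6% ± 0.78, 4.66% ± 0.22 and 3.29% ± 0.16 (SD, n = 4). The table gives no length for the copies, so levels of different subfamilies are not ranked here.

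How far a count could be placed on single copies differed widely among the members. Only 17.7% of the B2_Mm1a counts and 21.1% of the B2_Mm1t counts came from uniquely mapped reads, compared with 41.2% for B2_Mm2, 49.6% for B3 and 52.2% for B3A. In the Alu family the uniquely mapped share ran from 55.6% for B1_Mus1 to 72.8% for PB1D11, and in B4 from 48.2% for B4A to 60.9% for RSINE1. The old and rare AmnSINE1 and AmnSINE2 of the Deu family reached 86.1% and 87.9%. Counts of B2_Mm1a and B2_Mm1t therefore rest mostly on reads that the expectation-maximisation step divided among copies. The uniquely mapped share also differed by library, and among the 36 members other than FAM it was lowest in control replicate 4 for 32 and in control replicate 1 for the other 4.

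**Figure D1:**
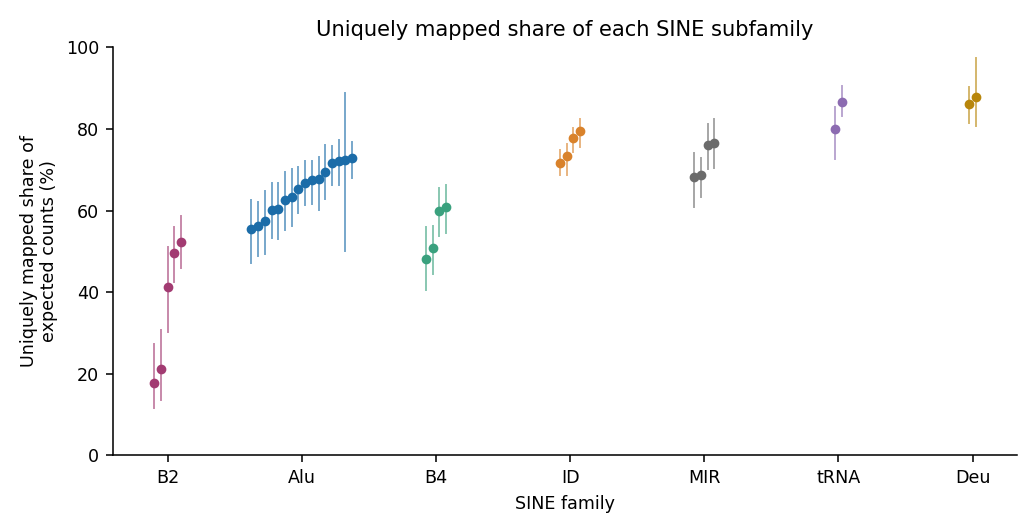
Uniquely mapped share (%) of the expected counts of each of the 37 SINE subfamilies, by family. Points are the share over all 8 libraries and vertical lines run from the lowest to the highest library; the 2 lowest points are B2_Mm1a (17.7%) and B2_Mm1t (21.1%), and the longest line is FAM, which had 9 counts in its poorest library.

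The first question was whether SINEs kept their place among transposable elements when vitC was added. SINE counts made up 40.9%, 41.3%, 43.7% and 43.5% of all LINE, SINE, LTR and DNA counts in control replicates 1 to 4. In the matching vitC-treated cultures they made up 36.7%, 39.4%, 40.6% and 40.6%. Every treated culture was thus below every control culture, and the pairs differed by -4.22, -1.88, -3.13 and -2.89 percentage points (mean -3.03 ± 0.96, SD, n = 4). The LINE share moved the other way in 4 of 4 pairs, from 17.97% ± 0.93 to 20.3% ± 1.70 (SD, n = 4). The LTR share was 28.7% ± 0.69 in control and 28.8% ± 0.68 in vitC-treated cells (SD, n = 4). It also rose in 4 of 4 pairs, by 0.06 to 0.17 percentage points. The DNA share rose in 3 of 4 pairs and differed by -1.04 percentage points in pair 2 (mean 0.62 ± 1.14, SD, n = 4). The mean difference of the LINE share was 2.31 percentage points. With LINE counts left out of the total, the SINE share remained lower in 4 of 4 pairs, by between -0.59 and -3.37 percentage points. These shares are descriptions and were not tested.

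The lower share depended on what SINE counts were compared with. Among uniquely mapped counts it was lower in 3 of 4 pairs, with 54.9% ± 1.63 in control and 53.4% ± 1.63 in vitC-treated cells (SD, n = 4). As a share of all repeat counts other than ribosomal repeats, SINEs were at 27.0% ± 3.64 and 27.5% ± 2.15 (SD, n = 4), and the pairs split 2 to 2. As a share of the aligned library size they were at 5.65% ± 0.57 and 5.63% ± 0.64 (SD, n = 4).

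**Figure D2:**
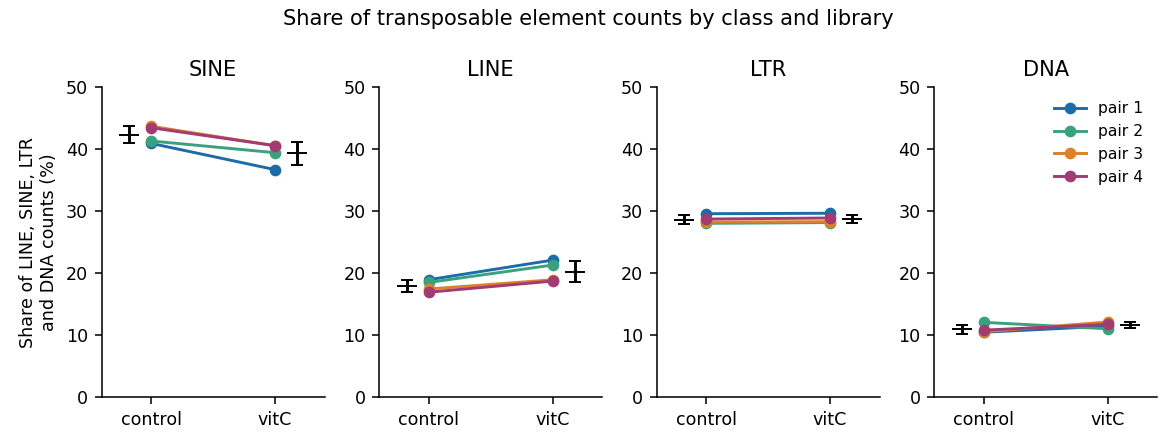
Share (%) of LINE, SINE, LTR and DNA counts taken by each class, with each line joining the control and vitC-treated culture of 1 pair and black marks giving the mean ± SD of 4 libraries. All 4 SINE lines fall, by -1.88 to -4.22 percentage points, and all 4 LINE lines rise.

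No SINE subfamily rose or fell past the threshold. At an adjusted p-value of 0.05 (edgeR quasi-likelihood test, Benjamini-Hochberg adjustment over 902 tested subfamilies), 0 of the 37 members were higher and 0 were lower, against 8 of all tested subfamilies higher (0.887%) and 0 lower (0%). At an unadjusted p under 0.05, 0 members were higher and 1 was lower, and DESeq2, which called 18 of all tested subfamilies higher (2%) and 0 lower, also called 0 SINEs, with 4 lower at that unadjusted level. When the replicate number was added as a block, which uses the pairing of cultures, 39 subfamilies were higher (4.32%) and 3 lower (0.333%), again with 0 SINEs among them, and 8 SINEs were lower at an unadjusted p under 0.05. All 37 members passed the filter on low counts.

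The members nevertheless lay on one side. The log2 fold change, vitC over control, was below 0 for 34 of 37 SINE subfamilies, and its median was -0.09 beside -0.01 over all tested subfamilies, of which 51.3% were below 0. In each of the 4 pairs the median over the members was below 0 (-0.08, -0.13, -0.09 and -0.04). Counts were lower in 4 of 4 pairs for 27 of the 37 members and higher in 4 of 4 pairs for none, against 13% lower and 13.3% higher among all tested subfamilies. The members share the scaling of each library, and reads that map to many copies were divided among them. They are therefore not separate observations. In uniquely mapped counts 12 of 36 tested members were lower in 4 of 4 pairs and none higher, against 10.2% lower and 10.1% higher among all 742 subfamilies tested there. The vitC-treated and control libraries did not overlap for 6 members, all of them lower after vitC, namely B1_Mus1, PB1D10, PB1D7, PB1D9, ID_B1 and ID4. Over all tested subfamilies 2.33% were apart in that direction and 4.99% in the other. With pairs 2 and 3 alone, a choice made after seeing the data, 35 of the 37 were below 0 with a median of -0.10. The directions depend on the scaling. Scaled by the aligned library size the median over the members was 0.02 and that over all subfamilies 0.12, so the members stayed below the others but 8 and not 34 were below 0.

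**Figure D3:**
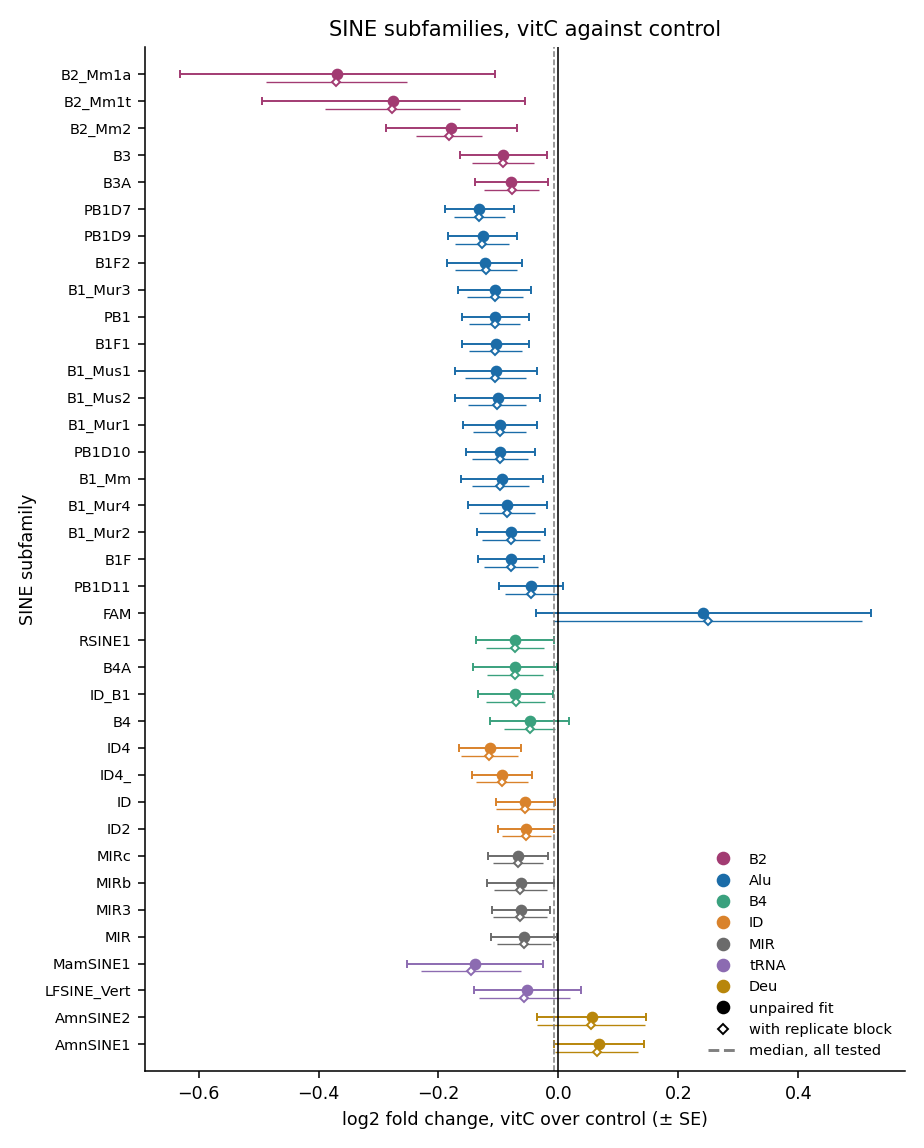
Log2 fold change (vitC over control, ± SE, 8 libraries) of the 37 SINE subfamilies, coloured by family, from the unpaired fit (filled) and the fit with the replicate block (open). The dashed line is the median of all 902 tested subfamilies; 34 of 37 points lie below 0, with B2_Mm1a farthest at -0.37, and FAM, AmnSINE1 and AmnSINE2 lie above it.

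In expected counts B2 elements held the 3 lowest fold changes. In uniquely mapped counts B2_Mm1a was still the lowest, but MamSINE1, ID4, PB1D7, PB1D9 and ID4_ (-0.14 to -0.12) lay below B2_Mm1t and B2_Mm2. B2_Mm1a, a young subfamily with 18346 copies, had 7801, 6262, 6925 and 12336 CPM in control replicates 1 to 4, where CPM are counts scaled by TMM to a common library size. It had 4355, 5641, 6597 and 9211 CPM in the matching vitC-treated cultures. Each treated culture was below its own control, but control replicates 1 and 4 were the high ones and the groups overlapped. edgeR gave a log2 fold change of -0.37 ± 0.26 (SE) at an adjusted p of 0.661, and of -0.37 ± 0.12 (SE) at an adjusted p of 0.140 with the replicate block.

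The difference in B2_Mm1a was uneven among pairs and kinds of count. In expected counts pairs 1 and 4 differed by -0.84 and -0.42 on the log2 scale, while pairs 2 and 3 differed by -0.15 and -0.07. With pairs 2 and 3 alone the log2 fold change was -0.10 (edgeR adjusted p = 0.921). In uniquely mapped counts it was -0.15 (standard error 0.10) over all pairs, and pairs 1 to 4 differed by -0.24, -0.20, -0.06 and -0.11. The log2 ratio of B2_Mm1a to B3 within a library, which no scaling between libraries can alter, changed by -0.74, -0.03, 0.03 and -0.38 in pairs 1 to 4. In uniquely mapped counts that ratio changed by -0.23, -0.14, 0.02 and -0.15.

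B2_Mm1t, a close relative, showed much the same order of libraries. It had 5844, 4828, 5234 and 8458 CPM in control replicates 1 to 4 and 3587, 4467, 5445 and 6631 CPM in the treated cultures. Pair 3 was slightly higher after vitC and the other 3 pairs were lower. edgeR gave -0.28 ± 0.22 (SE) on the log2 scale at an adjusted p of 0.709. The value was -0.09 in uniquely mapped counts, -0.01 with pairs 2 and 3 alone, -0.08 without control replicate 4, -0.14 without vitC replicate 1 and -0.44 without vitC replicate 4.

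B2_Mm2, with 90007 copies, had 8914, 9049, 9494 and 11003 CPM in control replicates 1 to 4. The treated cultures had 7279, 8041, 8959 and 9702 CPM, lower in 4 of 4 pairs with overlapping groups. edgeR gave -0.18 ± 0.11 (SE) on the log2 scale at an adjusted p of 0.576. The value was -0.11 without control replicate 4 and also without vitC replicate 1. In uniquely mapped counts it was -0.07 (SE 0.06), with pair 4 at 0.01. In a fit limited to LINE, SINE, LTR and DNA elements with the replicate block, chosen after seeing the data, B2_Mm2 and the Alu member PB1D7 were the only SINEs called lower (edgeR adjusted p = 0.0245 and 0.0486), beside 5 of 854 subfamilies called lower (0.585%) and 49 called higher (5.74%). The older B3 and B3A were at 12713 ± 575 and 5844 ± 229 CPM in control and 11928 ± 508 and 5533 ± 129 CPM in vitC-treated cells (SD, n = 4). Their log2 fold changes were -0.09 and -0.08, and both were lower in 4 of 4 pairs in expected counts. In uniquely mapped counts B3 was higher in pair 4 (log2 ratio 0.03) and B3A in pair 1 (0.02), and their remaining pairs were lower.

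**Figure D4:**
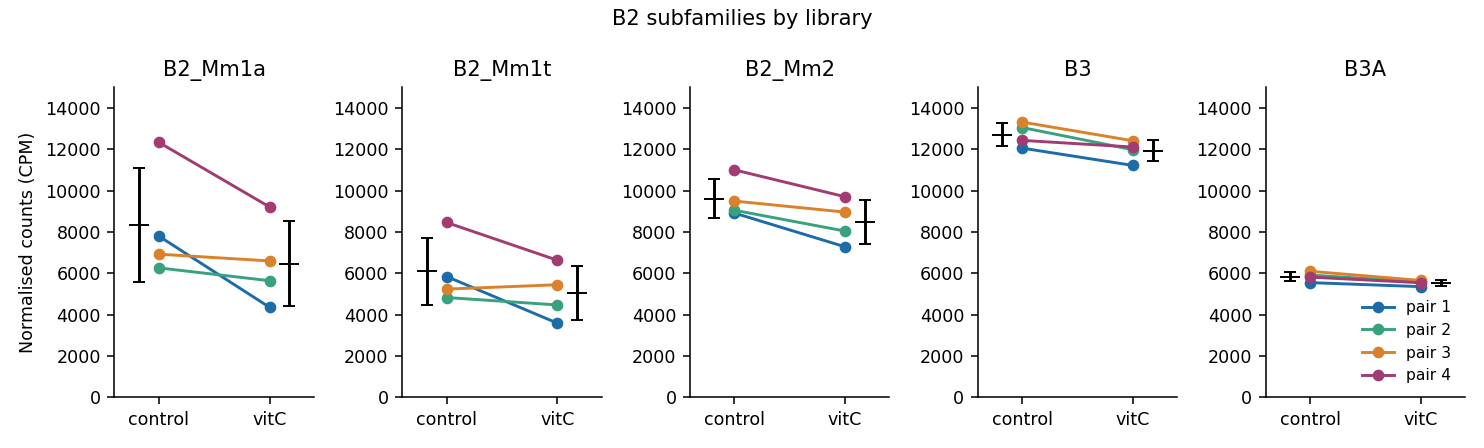
TMM-scaled counts (CPM) of the 5 B2 subfamilies in each library, with lines joining the cultures of a pair and black marks giving the mean ± SD of 4 libraries. Control replicate 4 is the highest point for B2_Mm1a, B2_Mm1t and B2_Mm2, and the slopes of pairs 1 and 4 for B2_Mm1a exceed those of pairs 2 and 3.

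Small structured RNAs were high and low in much the same libraries as the young B2 subfamilies. 7SL RNA was at 102153, 69932, 74027 and 138170 CPM in control replicates 1 to 4 and at 66672, 61835, 71912 and 109769 CPM in the treated cultures. The libraries highest in 7SL RNA, control replicates 4 and 1 and vitC replicate 4, were also the 3 highest in B2_Mm1a. U1, the small nuclear RNA that recognises 5′ splice sites, had 19881, 6189, 8872 and 36019 CPM in the controls and 6774, 7423, 7864 and 14846 CPM in the treated cultures. 7SK, an RNA polymerase III transcript that restrains the elongation factor P-TEFb, had 24640, 16518, 21597 and 33491 CPM in the controls and 14897, 12925, 16901 and 25786 CPM in the treated cultures. It was lower in 4 of 4 pairs, by -0.45 on the log2 scale, with an edgeR adjusted p of 0.536, or of 0.0170 with the replicate block. 7SL RNA, also lower in 4 of 4 pairs, had edgeR adjusted p-values of 0.732 and 0.185 in these fits. U1, lower in 3 pairs, had 0.502 and 0.247. U1 is made by RNA polymerase II, whereas 7SL and 7SK are made by RNA polymerase III. Only 0.52% of 7SL, 1.64% of 7SK and 0.40% of U1 counts were uniquely mapped, and in these 7SK was higher in pair 3 (log2 ratio 0.12). The part of the small RNA content of each library in the B2 values was not tested.

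**Figure D5:**
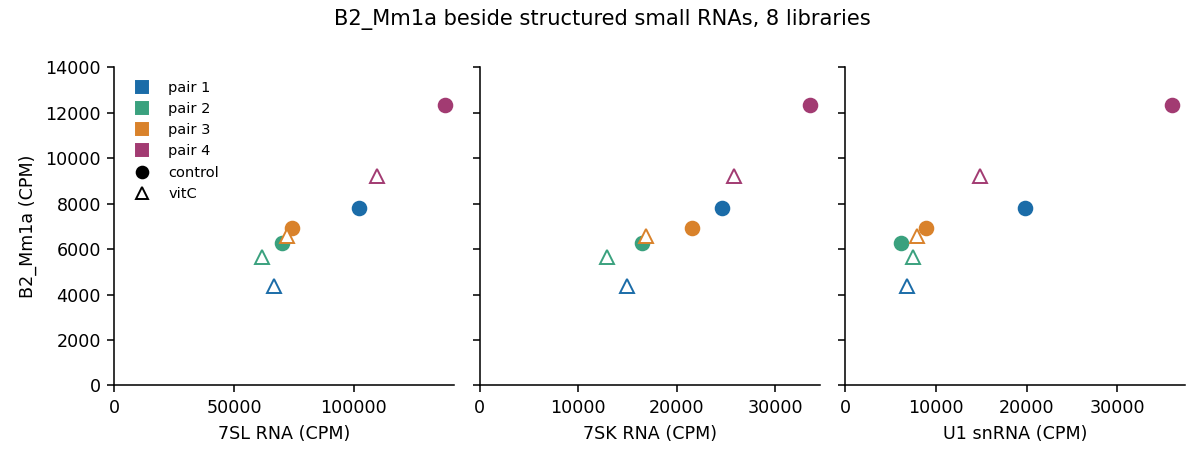
TMM-scaled counts (CPM) of B2_Mm1a against those of 7SL, 7SK and U1 RNA in the 8 libraries, with filled circles for control, open triangles for vitC and 1 colour per pair. Control replicate 4 is the farthest point in each panel (12336 CPM of B2_Mm1a), and the same 3 libraries, control replicates 1 and 4 and vitC replicate 4, are the highest on both axes of every panel.

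The Alu family, whose mouse members are the B1 elements, gave values that were smaller in size and closer together. Of its 16 subfamilies 15 were below 0, with log2 fold changes between -0.13 and -0.05, and 14 were lower in 4 of 4 pairs in expected counts. B1_Mus1, the member with the most copies (95081), had 8255, 8510, 8669 and 8560 CPM in control and 7278, 7905, 8243 and 8215 CPM in vitC-treated cultures. All treated cultures lay below all controls, narrowly. edgeR gave -0.10 ± 0.07 (SE) on the log2 scale at an adjusted p of 0.617, and -0.04 in uniquely mapped counts.

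PB1D7, an older B1 relative, had the lowest fold change of the family. It had 2256, 2368, 2486 and 2336 CPM in control and 2054, 2112, 2238 and 2218 CPM in vitC-treated cultures, without overlap. edgeR gave -0.13 ± 0.06 (SE) on the log2 scale at an adjusted p of 0.430, and -0.12 in uniquely mapped counts. PB1D9 and PB1D10 also did not overlap, with log2 fold changes of -0.13 and -0.10. The young members B1_Mm and B1_Mus2 had log2 fold changes of -0.09 and -0.10, B1_Mur1 and B1_Mur4 had -0.10 and -0.09, and B1F had -0.08. The ratio of B1_Mm to B1F differed between vitC and control by -0.02 on the log2 scale, with 2 pairs on each side, which is within the spread between libraries. FAM, a fossil monomer with 117 copies, was the only Alu member above 0, at 0.24 (standard error 0.28), on 9 to 26 counts per library.

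In the B4 family, whose elements are known as composites of ID-like and B1-like sequence, 4 of 4 members were below 0. ID_B1 had 8829, 9431, 9137 and 8892 CPM in control and 8460, 8626, 8787 and 8656 CPM in vitC-treated cultures. The groups did not overlap, with the highest treated culture just below the lowest control. edgeR gave -0.07 ± 0.06 (SE) on the log2 scale at an adjusted p of 0.742. RSINE1, B4A and B4 had -0.07, -0.07 and -0.05, and were lower in 4 of 4 pairs in expected counts. In uniquely mapped counts RSINE1 was higher in pair 2 (log2 ratio 0.0042) and B4A in pairs 1 and 2 (0.02 and 0.05). B4 was higher there in pairs 2 and 4 (0.0074 and 0.02), and the remaining pairs of these members were lower.

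ID elements were examined beside the repeat row named after BC1, the RNA shown above. ID4 had 1771, 1826, 1782 and 1741 CPM in control and 1640, 1575, 1633 and 1730 CPM in vitC-treated cultures, without overlap. edgeR gave -0.11 ± 0.05 (SE) on the log2 scale at an adjusted p of 0.438, and -0.14 in uniquely mapped counts. ID4_, ID and ID2 had -0.09, -0.06 and -0.05. The row BC1_Mm, which the table puts in the class scRNA and not among SINEs, sums all copies annotated under that name, so its counts are not those of the Bc1 gene alone, and 60.8% of them were uniquely mapped. It had 485, 412, 448 and 560 CPM in control and 373, 372, 402 and 463 CPM in vitC-treated cultures. It was lower in 4 of 4 pairs with overlapping groups, but in uniquely mapped counts pair 2 was higher (log2 ratio 0.05). edgeR gave -0.24 ± 0.10 (SE) on the log2 scale at an adjusted p of 0.411, past the threshold with the replicate block alone (edgeR adjusted p = 0.0409).

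In the older families the values were small and none passed the test. MIR elements, which spread before the placental mammals diverged, had log2 fold changes of -0.06 for MIR, MIR3 and MIRb and of -0.07 for MIRc. MIRb, the most counted, was at 2106 ± 58.0 CPM in control and 2016 ± 87.1 CPM in vitC-treated cells (SD, n = 4), and the groups overlapped. In the Deu family AmnSINE1 and AmnSINE2 were at 0.07 and 0.06 and split between pairs. In the tRNA family MamSINE1 was at -0.14 (SE 0.11) and LFSINE_Vert at -0.05 (SE 0.09).

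Summing each family and fitting all 48 repeat families together gave no SINE family past the threshold, and no family of any class was called (0%). In expected counts B2 was the lowest of the SINE families at -0.13 ± 0.09 (SE, edgeR, adjusted p of 0.621). Its summed counts were at 39704, 39385, 39616 and 47722 CPM in control and 32993, 39256, 38767 and 41543 CPM in vitC-treated cultures, and the pairs differed by -0.27, 0.00, -0.03 and -0.20 on the log2 scale. In uniquely mapped counts B2 was at -0.0031, above ID at -0.07 and tRNA at -0.05. With pairs 2 and 3 alone B2 was at -0.02 and tRNA at -0.09. Leaving out 1 library moved B2 between -0.17 and -0.05, with -0.05 without control replicate 4 and -0.06 without vitC replicate 1. In expected counts over all pairs Alu was at -0.04, ID at -0.03, tRNA at -0.03, B4 at -0.01 and MIR at 0.00. Deu was at 0.13 ± 0.05 (SE, edgeR, adjusted p of 0.536) and higher in 4 of 4 pairs, on 323 to 603 counts per library. Among all families, 20.8% were lower and 16.7% higher in 4 of 4 pairs. Families were scaled over 48 sums, whose median fold change was -0.03, so these values are not on the same footing as those of the subfamilies.

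The response was then compared between the culture sets, labels 10 and 11 (pairs 1 and 2) against 35B and 35C (pairs 3 and 4). No label names these sets. They were formed from the style of the labels and from a separation of these libraries seen in earlier results of these data. No SINE subfamily, and none of the 902 tested subfamilies (0%), had an effect that differed between the sets (edgeR interaction term), and 0 SINEs had an unadjusted p under 0.05 there. For B2_Mm1a the log2 fold change was -0.48 in pairs 1 and 2 and -0.28 in pairs 3 and 4, which differ by 0.21 ± 0.39 (SE, edgeR, adjusted p of 0.991). In simulated data this test recovered 45.5% of 2-fold and 4.52% of 1.5-fold differences between sets, and smaller ones were not simulated. The simulation gave every subfamily the same dispersion and no difference between pairs. In the real fit the standard error was 0.10 for ID4 and 0.39 for B2_Mm1a, so these rates are not those of single SINEs.

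Genes that make, bind or silence SINE RNA were taken from 3 lists, of which 77 of 79 genes were measured and tested. In the unpaired fit 0 rose and 0 fell (limma, adjusted over 14631 genes), where 0.321% of all genes were higher and 0.0205% lower, and 1 was higher and 2 were lower at an unadjusted p under 0.05. With the replicate block 7 rose and 4 fell, while 6.36% of all genes were higher and 4.44% lower. Among the 8 naive markers 0 rose and 0 fell in the unpaired fit, while with the block Tfcp2l1 rose by 0.11 and Nanog, Zfp42 and Pou5f1 fell by 0.25, 0.13 and 0.12. The SINE-related lists moved in about the share that all genes did, and their changes are described singly. Values are variance-stabilised, on a log2-like scale.

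Among 30 genes of RNA polymerase III transcription, 1 rose and 1 fell with the block. Polr3c, a subunit of the polymerase, had 8.95, 8.89, 8.98 and 8.95 in control and 9.21, 9.19, 9.05 and 9.11 in vitC-treated cultures. All treated cultures were above all controls, by 0.20 (standard error 0.05, limma adjusted p = 0.00941 with the block and 0.329 without). Polr3k, another subunit, was at 8.15 ± 0.08 in control and 7.98 ± 0.06 in treated cells (SD, n = 4), lower in 4 of 4 pairs. It fell by 0.17 with the block (limma adjusted p = 0.0429). Polr3g, the subunit typical of pluripotent cells, differed by -0.02, its counterpart Polr3gl by -0.09, and Maf1, the repressor of the polymerase, by 0.02, and none passed the test in either fit.

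Of 21 tested genes whose products bind or process SINE RNA, 3 rose and 2 fell with the block. Ssb, the La protein that holds the ends of new RNA polymerase III transcripts, was at 10.25 ± 0.13 in control and 10.12 ± 0.11 in treated cells (SD, n = 4), and fell by 0.13 (limma adjusted p = 0.0352 with the block). Ezh2, a histone methyltransferase known to promote the cleavage of B2 RNA, was at 9.87 ± 0.06 in control and 9.75 ± 0.09 in treated cells (SD, n = 4) and fell by 0.13 (limma adjusted p = 0.0481 with the block). Drosha of the microRNA pathway and Pabpc1, the poly(A)-binding protein, rose by 0.11 each. Srp9 and Srp14, which bind the Alu domain of 7SL RNA and of B1, differed by -0.06 and 0.00, and the editing enzyme Adar by -0.01.

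Of 26 tested chromatin genes, 3 rose and 1 fell with the block. Setdb1, which methylates H3K9, had 11.03, 10.94, 10.59 and 10.46 in control and 11.19, 11.19, 10.78 and 10.79 in treated cultures, higher in 4 of 4 pairs by 0.23 (limma adjusted p = 0.000403 with the block and 0.783 without). Suv39h1, which trimethylates H3K9 at repeats, was at 7.51 ± 0.20 in control and 7.75 ± 0.26 in treated cells (SD, n = 4), higher in 4 of 4 pairs by 0.24 (limma adjusted p = 0.00678 with the block). For both genes the controls of pairs 1 and 2 were above those of pairs 3 and 4, which the unpaired fit counts as error. Ehmt1, an H3K9 methyltransferase, rose by 0.14 and Cbx3, a reader of that mark, fell by 0.18. Adnp and Chd4, of the complex that binds B2 elements, differed by 0.08 and 0.03, and Ctcf, whose motif many B2 copies carry, by 0.00. Suv39h2, Hells and Dnmt1 differed by -0.07, -0.06 and 0.10, none past the test in either fit.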

How the data were processed

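RNA-seq of 8 mESC libraries was used, grouped and numbered from the sample labels, and the hESC libraries were not used here. Per the methods ribosomal RNA was depleted and libraries were directional, while the labels name either depletion or mRNA isolation. The submitters' processing notes name Trim Galore, HISAT2, DESeq2 and mm10, and the methods name SQuIRE. For each subfamily the authors deposited expected counts, in which reads that map to many copies are divided among them, and uniquely mapped counts. For genes they held variance-stabilised values, which the authors deposited on a log2-like scale. 2 further columns of per-sample values were not used.

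Expected counts were rounded. edgeR 4.0.16 in R 4.3.3, with filterByExpr, TMM, glmQLFit and glmQLFTest, was run over all subfamilies, and over family sums, with Benjamini-Hochberg adjustment and a threshold of 0.05. Pair log2 ratios used an added 0.5 count. limma 3.58.1 was run on genes that exceeded the table minimum in 4 libraries or more. Alternatives were DESeq2 1.42.0, the replicate block, other scalings and filters, uniquely mapped counts and each library left out. The replicate numbers pair the libraries because both libraries of a number carry 1 culture label. After subtraction of group means, correlations over 902 subfamilies were 0.217, 0.299, 0.288 and 0.541 within pairs 1 to 4. Between different labels they ran from -0.485 to 0.444, so pairs 1 to 3 lay inside that range. Over the 37 SINEs alone the ranges were -0.28 to 0.90 within pairs and -0.86 to 0.65 between labels. Over 14631 genes they were 0.626 to 0.765 and -0.709 to 0.665. The pairing therefore rests on the labels, since these ranges overlap. In simulated data, with the same dispersion for every subfamily and no difference between pairs, edgeR recovered 69.4% of 1.5-fold and 97.4% of 2-fold changes of subfamilies. Standard errors of the SINE fold changes ran from 0.05 to 0.28, so these rates are not those of single members.

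The members, gene lists and added alternatives were chosen with earlier results of these data known. Named are up to 6 subfamilies with the most counts per family, SINEs past the threshold with or without the block, the 5 largest rises and falls, SINEs with a library that stands apart, list genes called in either fit (up to 5 per side) and 16 reference genes. B1_Mm and B1F were named after their values were seen. 1 list gene called with the block is not reported here by name.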

Additional observations from a re-analysis of the deposited data

Results flagged for a closer look

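Each SINE subfamily, SINE family and class share was searched, within control and within vitC-treated cells, for 1 library that stood apart from the other 3 by Dixon's criterion at the 95% level. Of 96 such groups 4 held one, where chance gives about 1 in 20. Summed B2 counts in control cells were 47722 CPM in replicate 4, with the other controls between 39385 and 39704 CPM, and this library was also the highest control in 7SL, 7SK and U1 RNA. RSINE1 in vitC-treated cells was 6454 CPM in replicate 1, below 6875 to 6938 CPM in the others. MamSINE1 in vitC-treated cells was 89.3 CPM in replicate 2, below 124 to 129 CPM. AmnSINE2 in control cells was 50.2 CPM in replicate 1, above 45.8 to 46.2 CPM, a gap on few counts.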

How the results depend on the processing

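The count of SINE subfamilies called higher or lower was 0 under each of 23 other settings except 1: the replicate block on LINE, SINE, LTR and DNA elements, chosen after seeing the data, called 2 lower (B2_Mm2 and PB1D7). With the replicate block alone, which uses the pairing, it called 0, and among genes of the SINE lists it called 7 higher and 4 lower in place of 0 and 0. The median over SINEs stayed below that of all subfamilies throughout, and with 1 library left out the gap lay between -0.09 and -0.05. The SINE share differed by -3.51 to -2.16 percentage points with 1 library left out, by -1.53 in uniquely mapped counts, by 0.56 against all non-ribosomal repeats and by -0.0232 against the aligned library size.

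Signs of family values near 0 turned, none past the threshold. Scaled by aligned library size, without and with the block, Alu was 0.0125 and 0.0137, B4 0.0453 and 0.0443, ID 0.0185 and 0.0176, MIR 0.0492 and 0.0508 and tRNA 0.0164 and 0.0155. In uniquely mapped counts, without and with the block, B4 was 0.0149 and 0.0153 and MIR 0.00543 and 0.00579. MIR was 0.00305 and 0.00290 in DESeq2, without and with the block, and 0.00292 with RLE factors. In pairs 1 and 2 alone B4 was 0.0433 and MIR 0.0334, in pairs 2 and 3 B4 was 0.00275, and in pairs 3 and 4 tRNA was 0.00512. With 1 library left out B4 ran from -0.0456 to 0.0166, MIR from -0.0166 to 0.0133 and tRNA from -0.0660 to 0.0266. Scaled by aligned library size, 8 and not 34 of the 37 SINE subfamilies were below 0, both without and with the block. For the list that follows, subfamily values under that scaling were taken relative to the median over all tested subfamilies. AmnSINE1 turned to -0.00847 in pairs 1 and 2 and to -0.00963 in pairs 2 and 3. In pairs 2 and 3 FAM turned to -0.26 and ID to 0.00985, and in pairs 3 and 4 LFSINE_Vert turned to 0.0619. With 1 library left out FAM ran from -0.0493 to 0.44 and LFSINE_Vert from -0.12 to 0.0253. The causes were not tested. B2_Mm1a ran from -0.59 to -0.12 with 1 library left out, with -0.12 without control replicate 4, -0.22 without vitC replicate 1 and -0.59 without vitC replicate 4.

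Multi-mapping limits the young B2 subfamilies most, and their fit had the largest standard errors among well counted members. In simulated data 1.5-fold differences were recovered in part, and smaller ones were not simulated. Ribosomal repeats took about as many counts as all other repeats, and expected counts do not separate RNA polymerase III transcripts from SINE sequence inside longer RNAs.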
